A study of Homo sapiens with 2 samples.

Results

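The 51 genes described here carry cells from late G2 through mitosis and cytokinesis. They were chosen by symbol, as known mitosis and G2/M genes, when earlier results of these data were known. All 51 were found among the 60619 genes of the deposited tables. All 51 also passed the filter on low values, which left 13304 genes in all. The genes were sorted into 7 role groups, from the CDK1 kinase and its cyclins to the proteins that condense and anchor chromosomes. Their transcript levels were compared between cells that overexpressed CBS and cells that carried the empty vector.

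Entry into mitosis is driven by the kinase CDK1 bound to cyclin A or cyclin B, and exit follows when the anaphase-promoting complex (APC/C), a ubiquitin ligase, marks the cyclins and securin for destruction. Until every chromosome is attached to the spindle through its kinetochore, the spindle checkpoint holds the APC/C back. Transcripts of most of these genes are low in resting cells and peak in G2 and mitosis, so they are widely used as markers of dividing cells. Many of their promoters are bound by NF-Y at CCAAT boxes and by the DREAM and MuvB complexes at an element called the cell cycle genes homology region (CHR).

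RNA was taken from HBEC-3KT, a human bronchial epithelial line immortalized with CDK4 and telomerase. One library came from cells transduced with pLenti6-hCBS, which encodes human cystathionine beta-synthase, the first enzyme of transsulfuration. The other came from cells transduced with the pLenti6 vector alone. Per the labels, virus was left on the cells for 4 to 8 hours, and transduced cells were selected in 10 µg/mL blasticidin. Cells grew on gelatin-coated plates in Pneumocult EX medium for 4 to 5 days. The design text asks about the influence of CBS on PRC2, a complex that represses genes by methylating histone H3. The labels do not say whether either line was 1 clone, and each group held 1 library, so no difference below has a replicate check. The groups are called CBS cells and vector cells below. The libraries held 20785957 counts in CBS cells against 20433062 in vector cells.

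The labels were checked first. CBS had 3669 counts in CBS cells against 280 in vector cells. CBSL, a near-identical copy whose reads cannot be separated from it, had 4378 against 343. TERT, the telomerase gene given to this line, had 1993 TPM in CBS cells and 1282 TPM in vector cells. The basal epithelial markers KRT5 (54419 against 83759 counts) and TP63 (5136 against 4946) were high in both libraries. Of 8 basal markers, 6 had an interval below a ratio of 1, against 31.1% of all kept genes. Above 1 was the interval of 1 marker, against 31.6%, and that of 1 held 1. Their log2 ratios, CBS over empty vector, had a median of -0.51 and ran from -2.15 to 0.93. Of the 5 general epithelial markers EPCAM, CDH1, KRT8, KRT18 and KRT19, 3 had an interval above 1 and 2 had one below. The median log2 ratio of these 5 was 0.46. Fibroblast markers passed the filter for 1 of 7 genes and summed to 6.24 CPM in CBS cells and 13.8 CPM in vector cells, with COL1A2, COL3A1, DCN and LUM at 0 in both. Endothelial markers passed for 1 of 6 genes and summed to 4.27 CPM in CBS cells and 0.803 CPM in vector cells, with KDR and TIE1 at 0 in both. Immune markers passed for 2 of 7 genes and summed to 39.7 CPM in CBS cells and 124 CPM in vector cells, mostly CD68, with PTPRC, CD3E and LYZ at 0 in both. The part of these markers in the results below was not tested.

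Transcripts of the mitotic genes were slightly more abundant in the CBS library. The median log2 ratio of the 51 genes was 0.21, where the median of all 13304 kept genes was 0.00. Log2 ratios here put CBS over the empty vector, were scaled by TMM (trimmed mean of M-values) and have 95% intervals for counting error in parentheses where printed. Of the members, 37 had an interval wholly above a ratio of 1, or 72.5%, against 31.6% of all kept genes. It lay below 1 for 1 gene, against 31.1% of all kept genes, and held 1 for 13. The log2 ratios were small and close together, from -0.15 for NEK2 to 0.56 for LBR. None of the 51 was at least 1.5-fold higher with an interval that excluded 1, which 7.02% of all kept genes were, and none was at least 1.5-fold lower, against 12.9%. At 2-fold, where the count of members was again 0, the shares of all kept genes were 1.41% higher and 5.28% lower.

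Well-counted genes have narrower intervals, and every member was well counted, with 274 to 9582 counts per library. Among the 7854 kept genes whose mean count lay within the members' range, 40.0% had an interval above a ratio of 1 and 31.4% had one below. The median log2 ratio of these genes was 0.05, with a middle range from -0.21 to 0.27. At 1.5-fold, 5.49% of them were higher and 7.54% lower, with an interval that excluded 1. Of these genes, 63.4% lay within the range of log2 ratios of the members. Together the members summed to 6354 CPM in CBS cells and 5538 CPM in vector cells, a ratio of 1.15. In a population of cells, a larger share of cells in G2 and mitosis and more of these transcripts per cell cannot be told apart.

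**Figure D1:**
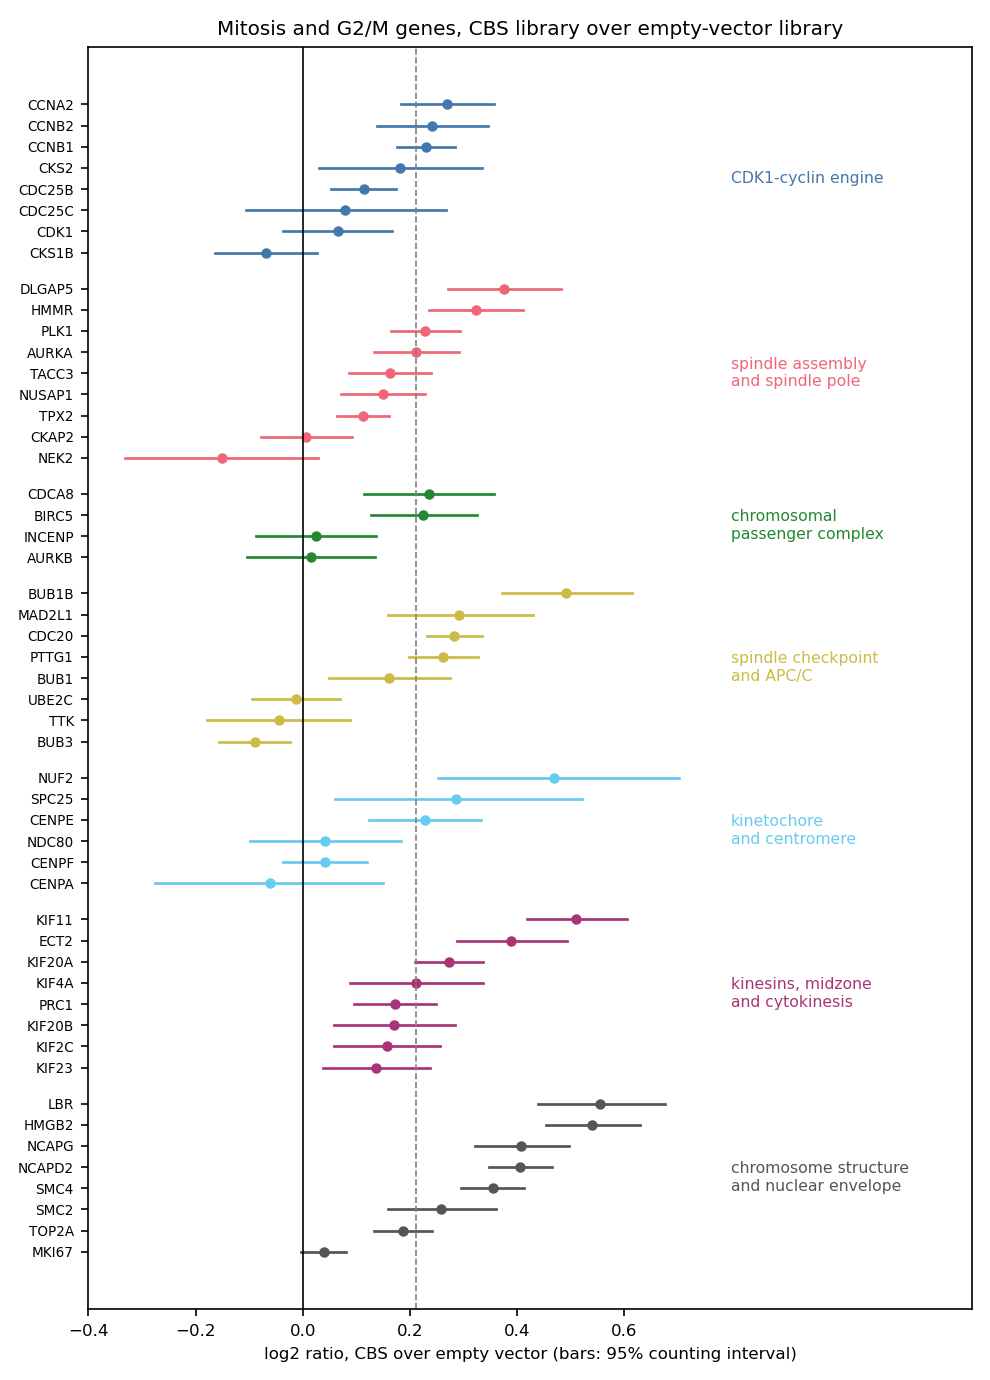
Log2 ratio of each of the 51 genes, CBS over empty vector, with 95% counting intervals, sorted within 7 role groups; the dashed line is the median of the members, 0.21. Points lie between -0.15 and 0.56, and 45 of 51 lie above 0.

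Promoter sequences of 9 members are shown to let the CCAAT boxes and CHR cores known from this gene class be seen in cyclin genes and in genes from both ends of the range of log2 ratios. Each is the 150 bases before the transcript start, from RefSeq on GRCh38.p14, read 5′ to 3′ on the strand of the gene. Capitals mark CCAAT or its reverse complement ATTGG, and the CHR cores TTTGAA (reverse complement TTCAAA) and TTTAAA, which is its own reverse complement. The windows of the cyclins B are chr5:69167000-69167149 (plus strand) for CCNB1 and chr15:59104996-59105145 (plus strand) for CCNB2. PLK1 lies at chr16:23678739-23678888 (plus strand) and CDC20 at chr1:43358831-43358980 (plus strand). KIF11 lies at chr10:92592980-92593129 (plus strand) and BUB1B at chr15:40160919-40161068 (plus strand). LBR, with the highest log2 ratio, lies at chr1:225428822-225428971 (minus strand). NEK2, with the lowest, lies at chr1:211675622-211675771 (minus strand), and CKS1B at chr1:154974531-154974680 (plus strand).
CCNB1: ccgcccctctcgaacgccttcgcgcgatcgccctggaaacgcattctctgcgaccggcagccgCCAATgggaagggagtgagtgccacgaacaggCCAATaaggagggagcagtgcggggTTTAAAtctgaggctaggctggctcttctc
CCNB2: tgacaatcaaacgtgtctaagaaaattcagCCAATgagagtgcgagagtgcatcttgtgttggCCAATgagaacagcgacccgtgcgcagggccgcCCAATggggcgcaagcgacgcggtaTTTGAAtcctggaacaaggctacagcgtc
PLK1: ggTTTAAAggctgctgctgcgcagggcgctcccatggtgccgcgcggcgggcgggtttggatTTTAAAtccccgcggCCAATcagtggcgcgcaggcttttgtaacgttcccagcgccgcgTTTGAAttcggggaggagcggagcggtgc
CDC20: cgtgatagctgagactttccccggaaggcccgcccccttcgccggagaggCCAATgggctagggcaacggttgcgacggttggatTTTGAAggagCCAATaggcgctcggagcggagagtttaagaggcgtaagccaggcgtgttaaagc
KIF11: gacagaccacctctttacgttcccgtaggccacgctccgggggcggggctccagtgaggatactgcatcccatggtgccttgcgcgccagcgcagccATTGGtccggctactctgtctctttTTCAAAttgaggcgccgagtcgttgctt
BUB1B: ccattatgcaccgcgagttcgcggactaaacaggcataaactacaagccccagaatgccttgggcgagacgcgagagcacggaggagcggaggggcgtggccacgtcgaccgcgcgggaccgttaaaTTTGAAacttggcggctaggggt
LBR: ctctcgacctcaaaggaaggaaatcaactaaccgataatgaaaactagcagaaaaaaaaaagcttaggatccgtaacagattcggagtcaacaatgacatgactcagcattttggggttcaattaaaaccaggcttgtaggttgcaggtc
NEK2: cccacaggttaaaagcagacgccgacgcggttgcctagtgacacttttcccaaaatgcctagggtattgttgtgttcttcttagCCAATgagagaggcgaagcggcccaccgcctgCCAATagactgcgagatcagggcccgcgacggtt
CKS1B: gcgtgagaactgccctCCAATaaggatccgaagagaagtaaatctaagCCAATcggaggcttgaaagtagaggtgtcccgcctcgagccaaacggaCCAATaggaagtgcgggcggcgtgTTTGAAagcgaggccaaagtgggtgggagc

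CCNB2 and CKS1B each held 3 CCAAT boxes and 1 CHR core in this window. CCNB2 had a log2 ratio of 0.24 and CKS1B one of -0.07. NEK2, with the lowest log2 ratio, held 2 CCAAT boxes and no CHR core. LBR held neither motif here, and its log2 ratio was 0.56. A CHR core of LBR began at position -156 from the transcript start, just outside this window. RefSeq promoters of 300 bases (250 before to 50 after the start) were matched for 44 of the 51 genes, with 56 starts in all. CCAAT on either strand was found in 67.9% of the 56 windows, against 34.6% of 35116 promoters of the same length. At least 2 CCAAT boxes were found in 44.6% against 10.8%. A CHR core was found in 42 of the 56 windows, against 24.0% of all promoters, and one that began within 60 bases before the start in 44.6% against 5.49%. CCAAT within 120 bases and a CHR core within 60 bases before the start were found together in 33.9% against 1.27%. Such a match is a description of letters and not a bound site. The 19 genes with both motifs near the start had a median log2 ratio of 0.21, and the other 25 genes with a promoter had one of 0.23.

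**Figure D2:**
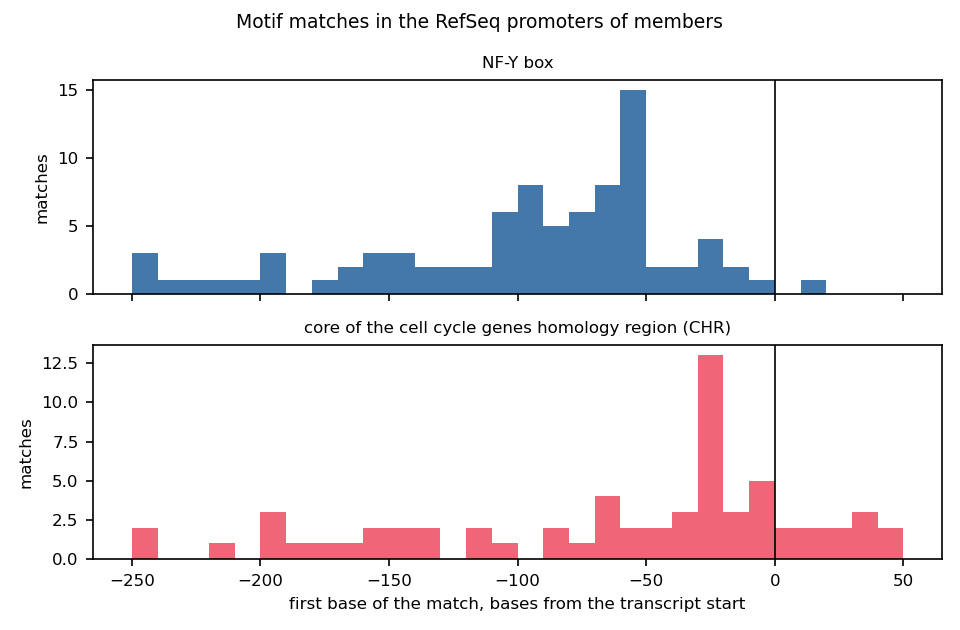
Positions of NF-Y box and CHR core matches in the 56 RefSeq promoters of 44 members, as matches per 10 bases from the transcript start, on either strand; overlapping windows of genes with several starts are counted once per window. NF-Y boxes gather in the 120 bases before the start, and CHR cores peak closer to it.

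Of the 8 genes of the CDK1 engine, 5 had an interval above a ratio of 1 and 3 had one that held 1, with a median log2 ratio of 0.15. That was 62.5% above 1, against 40.0% of kept genes with mean counts in the members' range. CCNA2, cyclin A2, on chromosome 4 (121816444 to 121823933), in GRCh38 positions, had 2434 counts in CBS cells against 1885 in vector cells, a log2 ratio of 0.27 (0.18 to 0.36), the highest of the group. CCNB1, cyclin B1, had 6180 against 4921 counts and a log2 ratio of 0.23 (0.18 to 0.28), and CCNB2, cyclin B2, had 1721 against 1359 and 0.24 (0.14 to 0.35). The 3 mitotic cyclins thus lay within 0.04 of each other on the log2 scale. CDK1 itself had 1658 against 1480 counts, and its log2 ratio of 0.07 had an interval that held 0 (-0.04 to 0.17). CDC25B and CDC25C, phosphatases that activate CDK1, were at a log2 ratio of 0.11 (0.05 to 0.17) and 0.08 (-0.11 to 0.27). CKS1B and CKS2 encode small subunits that bind CDK1. CKS1B, the lowest of the group, had 1809 against 1772 counts and a log2 ratio of -0.07 (-0.16 to 0.03). CKS2 had 791 against 651 and 0.18 (0.03 to 0.33).

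In the spindle assembly group, 7 of 9 genes had an interval above a ratio of 1 and 2 had one that held it, and the median was 0.16. Intervals above 1 made up 77.8%, against 40.0% of kept genes with mean counts in the members' range. DLGAP5, which bundles spindle microtubules near the kinetochores, was highest, with 1749 counts in CBS cells against 1258 in vector cells and a log2 ratio of 0.38 (0.27 to 0.48). HMMR, a microtubule-binding protein of spindle poles, had 2463 against 1838 counts and a log2 ratio of 0.32 (0.24 to 0.41). The mitotic kinases PLK1 (4284 against 3414 counts) and AURKA (2873 against 2316) were at a log2 ratio of 0.23 (0.16 to 0.29) and 0.21 (0.13 to 0.29). TPX2, which activates AURKA on the spindle, was at a log2 ratio of 0.11 (0.06 to 0.16). TACC3, a partner of AURKA in spindle assembly, was at a log2 ratio of 0.16 and NUSAP1, a microtubule crosslinker, at 0.15. NEK2, a kinase that separates centrosomes, on chromosome 1 (211658657 to 211675630), had 502 counts in CBS cells against 521 in vector cells. Its log2 ratio of -0.15 (-0.33 to 0.03) was the lowest of all members, and its interval held 0. CKAP2, a microtubule-associated protein, was at a log2 ratio of 0.01 (-0.08 to 0.09).

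The chromosomal passenger complex corrects faulty attachments at the centromere and later moves to the midzone. Its kinase AURKB had 1199 counts in CBS cells against 1108 in vector cells, and its scaffold INCENP had 1354 against 1243. Their log2 ratios of 0.02 (-0.10 to 0.13) and 0.03 (-0.09 to 0.14) had intervals that held 0. The targeting subunits were higher, with BIRC5, survivin, at 1873 against 1496 counts and 0.23 (0.13 to 0.33) and CDCA8, borealin, at 1251 against 992 and 0.24 (0.12 to 0.36).

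The spindle checkpoint and APC/C group held 3 of the 6 members with a log2 ratio below 0. It had 5 of 8 intervals above a ratio of 1, 1 below and 2 that held it, and a median of 0.21. Of kept genes with mean counts in the members' range, 40.0% had an interval above 1 and 31.4% had one below. BUB1B, which encodes the checkpoint kinase-like protein BUBR1, was highest, with 1387 counts in CBS cells against 920 in vector cells and a log2 ratio of 0.49 (0.37 to 0.62). MAD2L1, the checkpoint protein that binds CDC20, had 1033 against 787 counts and 0.29 (0.16 to 0.43). CDC20, the APC/C activator, had 7161 against 5496 counts and a log2 ratio of 0.28 (0.23 to 0.33). PTTG1, securin, which restrains separase, had 4388 against 3417 counts and a log2 ratio of 0.26 (0.20 to 0.33), and the checkpoint kinase BUB1 was at 0.16 (0.05 to 0.28). UBE2C, a ubiquitin-conjugating enzyme of the APC/C, was at a log2 ratio of -0.01 (-0.09 to 0.07) and the checkpoint kinase TTK at -0.04 (-0.18 to 0.09). BUB3, which brings BUB1 and BUBR1 to kinetochores, was the 1 member with an interval below a ratio of 1. It had 3687 against 3664 counts and a log2 ratio of -0.09 (-0.16 to -0.02), but 0.02 on log2(TPM + 1).

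Kinetochore and centromere genes had a median of 0.14, with 3 of 6 intervals above a ratio of 1 and 3 that held it. Among kept genes with mean counts in the members' range, 40.0% had an interval above 1. After correction for the GC content and length of transcripts, described below, 2 of the 6 did. NUF2, NDC80 and SPC25 encode subunits of 1 complex that grips microtubules. NUF2 had 408 counts in CBS cells against 274 in vector cells and a log2 ratio of 0.47 (0.25 to 0.70). SPC25 had 360 against 275 counts and 0.29 (0.06 to 0.52), and NDC80 had 871 against 790 and 0.04 (-0.10 to 0.18). CENPE, the kinesin of the kinetochore, was at a log2 ratio of 0.23 (0.12 to 0.33), and CENPF, a large protein of the outer kinetochore, at 0.04 (-0.04 to 0.12). CENPA, the histone variant of centromeres, was lowest, with 371 against 362 counts and a log2 ratio of -0.06 (-0.28 to 0.15).

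All 8 genes of the kinesin, midzone and cytokinesis group had an interval above a ratio of 1, with a median log2 ratio of 0.19. The share above 1 was 40.0% among kept genes with mean counts in the members' range. After correction for the GC content and length of transcripts, described below, 6 of the 8 had an interval above 1, without KIF23 and KIF20B. KIF11, the motor that pushes spindle poles apart, on chromosome 10 (92593286 to 92655395), had 2364 counts in CBS cells against 1548 in vector cells. Its log2 ratio was 0.51 (0.42 to 0.61). ECT2, the exchange factor that starts the cleavage furrow, had 1874 against 1335 counts and a log2 ratio of 0.39 (0.29 to 0.49). KIF20A, a motor of the midzone, was at a log2 ratio of 0.27 and KIF4A, a chromosome-bound motor, at 0.21. PRC1, which bundles midzone microtubules, was at a log2 ratio of 0.17, KIF20B, a motor of late cytokinesis, at 0.17 and KIF2C, which depolymerizes microtubules, at 0.16. KIF23, of the centralspindlin complex, was lowest, with 1777 against 1509 counts and 0.14 (0.04 to 0.24).

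Genes of chromosome structure and the nuclear envelope had the highest median of the 7 groups, 0.38, with 7 of 8 intervals above a ratio of 1. That was 87.5% of the group, against 40.0% of kept genes with mean counts in the members' range. LBR, the lamin B receptor of the inner nuclear membrane, on chromosome 1 (225401502 to 225428925), had 1484 counts in CBS cells against 942 in vector cells. That was 1.47-fold (1.36 to 1.60), or 0.56 on the log2 scale (0.44 to 0.68), the highest of all members. HMGB2, a DNA-bending chromatin protein, had 2711 against 1740 counts and a log2 ratio of 0.54 (0.45 to 0.63). The condensin subunits were at a log2 ratio of 0.41 for NCAPG (2580 against 1815 counts), 0.41 for NCAPD2 (5585 against 3935), 0.35 for SMC4 (5548 against 4052) and 0.26 for SMC2 (1830 against 1428). TOP2A, the topoisomerase that untangles sister chromatids, was at a log2 ratio of 0.19 (0.13 to 0.24). MKI67, which encodes the proliferation marker Ki-67, had the most counts of any member, 9582 with CBS and 8713 with the empty vector. Its log2 ratio of 0.04 (-0.003 to 0.08) was the lowest of the group, and its interval held 0.

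Levels between genes were compared in the authors' TPM, which corrects for length. The 51 genes ranged from 14.1 to 437 TPM with CBS and from 10.6 to 345 TPM with the empty vector, with medians of 60.9 TPM in CBS cells and 47.7 TPM in vector cells. PTTG1, CDC20, CCNB1 and UBE2C were, in this order, the 4 most abundant in both libraries, at 437, 379, 342 and 252 TPM in CBS cells, against 345, 285, 258 and 225 TPM in vector cells. CENPE was lowest with CBS, at 14.1 against 13.1 TPM, and NUF2 was lowest with the empty vector, at 16.4 against 10.6 TPM. The order of the 51 genes was nearly the same in both libraries (Spearman correlation 0.98 across genes, which share their libraries and their lengths). TPM was higher with CBS for 50 of 51 genes, NEK2 being the exception, but the log2 TPM ratio of all kept genes also had a median of 0.10, against 0.30 for the members. The 5 other genes with a log2 ratio below 0 in counts had log2 TPM ratios between 0.01 and 0.16, with CKS1B, TTK and BUB3 below the median of all kept genes.

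**Figure D3:**
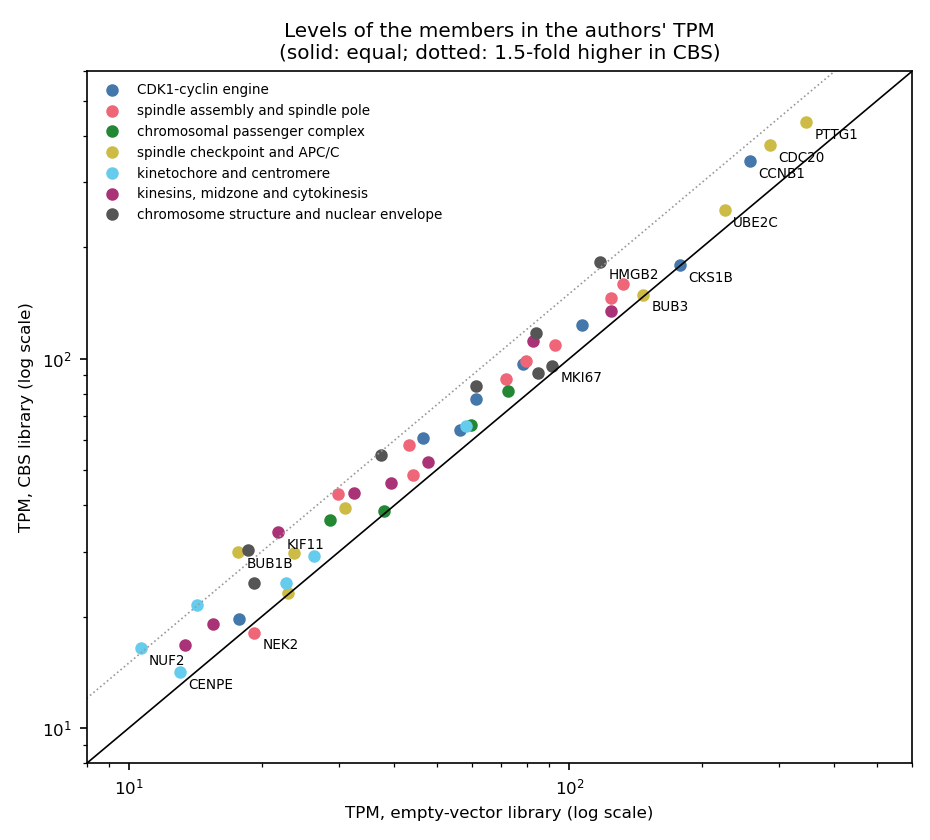
TPM of the 51 genes in the CBS library against the empty-vector library, both axes logarithmic, coloured by role group; the solid line marks equal levels and the dotted line a 1.5-fold higher level with CBS. All points but NEK2 lie above the line of equality, and most lie between both lines.

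Some partners and paralogs stood in similar proportions of TPM in both libraries. Cyclin B1 was 4.40 times as abundant as cyclin B2 with CBS and 4.21 times with the empty vector, and the ratio of CDC25B to CDC25C was 6.25 with CBS and 6.02 with the empty vector. The ratio of TPX2 to its partner AURKA was 1.48 with CBS and 1.56 with the empty vector, and that of the condensin subunits NCAPD2 and NCAPG was 1.55 with CBS and 1.65 with the empty vector. Other pairs differed more. BUB3 was 4.97 times as abundant as BUB1B with CBS and 8.32 times with the empty vector, and NDC80 was 1.77 times as abundant as NUF2 with CBS and 2.48 times with the empty vector. CKS1B was 1.86 times as abundant as CKS2 with CBS and 2.28 times with the empty vector. These ratios have no replicate error.

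Reads shared with other genes limit some of these values. The estimated counts were not whole in at least 1 library for 21 of the 51 genes, whose median log2 ratio was 0.27, against 0.17 for the 30 genes with whole counts. Of the named copies of members, CDC20P1 was the best counted, with 161 counts in CBS cells against 120 in vector cells, or 2.22% of the CDC20 counts. KIF4B, the retrocopy of KIF4A, had 10 counts against 5. BUB1B shares exon positions on its own strand with ENSG00000259288, which had 147 counts in CBS cells against 219 in vector cells, and the sum of both had a log2 ratio of 0.33. CENPA likewise overlaps SLC35F6, with 1182 counts in CBS cells against 970 in vector cells, and their sum was at a log2 ratio of 0.12. Exons of CCNA2 overlap EXOSC9 on the opposite strand, with 1370 against 721 counts and a log2 ratio of 0.82 (0.70 to 0.96). NCAPD2 overlaps MRPL51, at a log2 ratio of 0.13 (0.04 to 0.23), and KIF20A overlaps CDC23, at 0.21 (0.08 to 0.33). On the opposite strand, CDC25C also overlaps FAM53C, with 1561 against 1438 counts and a log2 ratio of 0.02 (-0.08 to 0.12). KIF4A overlaps PDZD11, with 788 against 694 counts and a log2 ratio of 0.08 (-0.06 to 0.23). The strand setting of the counting is not given in the sources used here, so the split of reads within such pairs is uncertain.

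Log2 ratios also followed the GC content of transcripts across all kept genes (Spearman correlation -0.28 over 13225 genes, a description across genes that share both libraries). The median was 0.12 in the 20% of genes lowest in GC content, which held 18 of the 51 members, and -0.23 in the 20% highest in it, which held 4. The members had a median GC content of 42.6%, against 48.1% for all kept genes. Within each of these 5 GC classes the median of the members lay from 0.14 to 0.29, above that of all genes. After correction for this trend and that on length, the median of the members was 0.15. In that measure 32 intervals lay above a ratio of 1 and 5 below, those of NEK2, BUB3, TTK, CKS1B and CKAP2. The shares of all kept genes in that measure were not counted, so these counts have no background beside them. Intervals that lay above 1 before the correction held 1 after it for 6 genes, CKS2, NUSAP1, BUB1, SPC25, KIF20B and KIF23, and that of INCENP lay above 1 only after it. The log2 ratio also changed sign for 5 genes, to -0.07 for CDK1, -0.12 for CKAP2, -0.05 for CENPF, -0.10 for NDC80 and 0.01 for UBE2C. The kinetochore group then had a median of 0.04 and the group of chromosome structure one of 0.27.

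**Figure D4:**
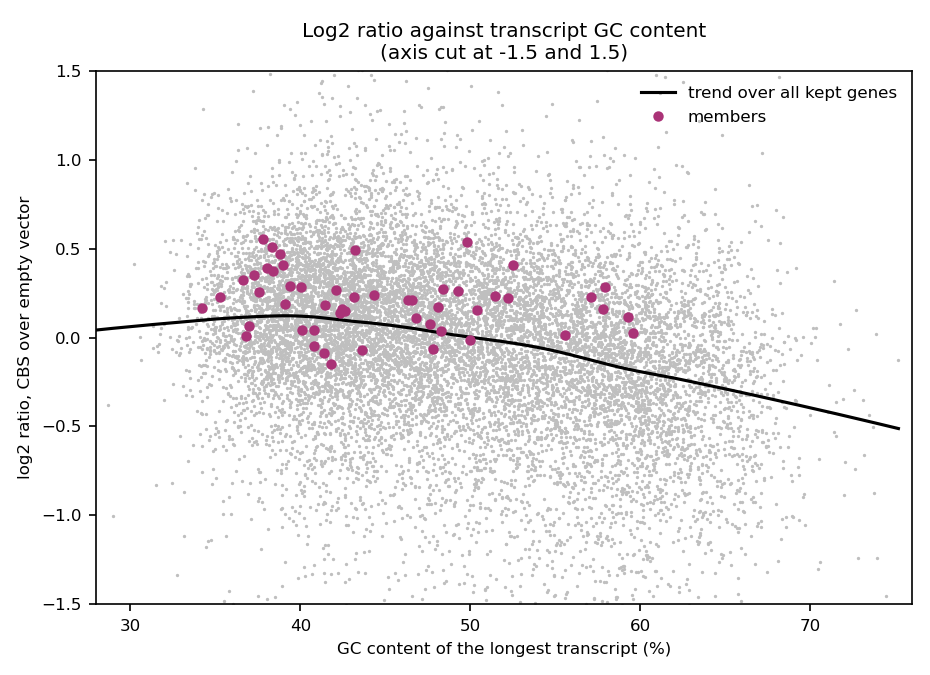
Log2 ratio, CBS over empty vector, against GC content of the longest transcript, for all kept genes (grey, axis limited to -1.5 to 1.5) and the 51 members (coloured); the line is the trend over all kept genes. The trend is higher at low GC content, where many members lie, and most members lie above it.

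Other genes of mitosis, 115 in 5 lists, had a median log2 ratio of 0.24 and a wider range than the members, from -0.44 to 0.82. All 115 passed the filter. Of their intervals 76 lay above a ratio of 1, or 66.1% against 31.6% of all kept genes, 8 lay below and 31 held it. Of the 115 genes in these lists, 12 were at least 1.5-fold higher, where 7.02% of all kept genes were, and 0 at least 1.5-fold lower, against 12.9%. Among 32 other kinetochore genes the median log2 ratio was 0.27. CENPU at a log2 ratio of 0.62 (0.49 to 0.75) and CENPX (listed as STRA13) at 0.61 were among the highest, and PMF1 at -0.44 (-0.58 to -0.31), CENPL at -0.27 and CENPT at -0.25 were the lowest. Among 17 condensin, cohesin and separase genes the median was 0.22. The condensin subunits NCAPD3 at a log2 ratio of 0.74 (0.63 to 0.85), NCAPG2 at 0.57 and NCAPH at 0.53 were highest. SGO2, a protector of cohesin, at a log2 ratio of -0.07 and the cohesin subunits RAD21 and STAG2, both at -0.02, were lowest, and their intervals held 0.

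Among 22 other spindle and cytokinesis genes the median was 0.22, with SAPCD2 at 0.60 (0.47 to 0.73), the kinesin KIF15 at 0.53 and BORA, an activator of AURKA, at 0.43 at the top. CKAP2L at a log2 ratio of -0.16 (-0.27 to -0.05), CEP55, of the midbody, at -0.10 and the kinesin KIF18A at -0.07 were lowest. Of 19 other APC/C genes 14 had an interval above a ratio of 1, or 73.7% against 31.6% of all kept genes, with a median of 0.28. The subunits ANAPC1, with 1819 against 965 counts, ANAPC4 and CDC26 were at a log2 ratio of 0.81 (0.70 to 0.93), 0.75 and 0.56. FZR1, the activator that takes over from CDC20 late in mitosis, had 1274 counts in CBS cells against 1462 in vector cells and was lowest at a log2 ratio of -0.30 (-0.41 to -0.19), followed by ANAPC16 at -0.13 and ANAPC11 at -0.09.

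The 25 regulators of G2/M kinases and transcription had a median of 0.23. Highest were RBL1, the pocket protein p107, with 1439 against 757 counts and a log2 ratio of 0.82 (0.70 to 0.96), WEE1, the kinase that inhibits CDK1, with 868 against 502 counts and 0.69 (0.53 to 0.85), and the mitotic kinase PBK at 0.59. Among those with at least 100 counts in 1 library, the lowest were RBL2, the pocket protein p130 of the DREAM complex, at a log2 ratio of -0.19 (-0.33 to -0.05) and the phosphatase regulators PPP2R2A and ENSA, both at 0.03. LIN37, a DREAM subunit under that limit with 60 against 70 counts, had a log2 ratio of -0.30 (-0.84 to 0.20). FOXM1 and MYBL2, activators of many of the members, were named for that role after their values were seen. FOXM1 had 3975 against 2862 counts and a log2 ratio of 0.38 (0.31 to 0.45), and MYBL2 had 4358 against 3547 and 0.20 (0.13 to 0.26).

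DNA replication genes, which act earlier in the cell cycle and share no gene with the members, were further apart between the libraries. All 35 had an interval above a ratio of 1, against 31.6% of all kept genes, with a median log2 ratio of 0.67. Of the 35, 21 were at least 1.5-fold higher, against 7.02% of all kept genes. They ranged from RFC4, of the clamp loader, at a log2 ratio of 0.14 (0.01 to 0.28), the polymerase POLE at 0.24 and RFC1 at 0.26 to the helicase factors MCM6 at 0.96, MCM2 at 0.96 (0.88 to 1.05) and GINS1 at 0.97 (0.82 to 1.13). MCM2 had 3690 counts in CBS cells against 1766 in vector cells. None of the 51 mitotic genes reached the median of the replication list, and 21 of the 35 replication genes lay above LBR, the highest mitotic gene. Summed over each list, counts were 1.15-fold for the mitotic genes and 1.59-fold for the replication genes. The difference between the lists could not be tested with 1 library per group.

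Genes that hold the cell cycle back mostly lay below 0, as 10 of 12 did, where 6630 of all 13304 kept genes did. Of 13 CDK inhibitors and growth arrest genes, 12 passed the filter, with a median log2 ratio of -0.65. Of these, 7 had an interval below a ratio of 1, against 31.1% of all kept genes, and 1 had one above, against 31.6%. The median was -0.43 on log2(TPM + 1), where that of all kept genes was 0.09, and -0.47 with no filter. BTG1, an antiproliferative factor, had 1205 counts in CBS cells against 3536 in vector cells and a log2 ratio of -1.65 (-1.75 to -1.56). GADD45B, a stress-induced inhibitor of growth, was at a log2 ratio of -1.22 (-1.56 to -0.96) and CDKN2D, the CDK inhibitor p19, at -0.97 (-1.38 to -0.65). CDKN1A, the inhibitor p21, named after its values were seen, had 4794 against 8011 counts and -0.84 (-0.89 to -0.79). Highest were CDKN2C at a log2 ratio of 0.12 (-0.16 to 0.40), CDKN2A at 0.08 (0.03 to 0.13) and CDKN1B at -0.08 (-0.24 to 0.07). Of the 12 genes, 8 lay below NEK2, the lowest mitotic gene.

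**Figure D5:**
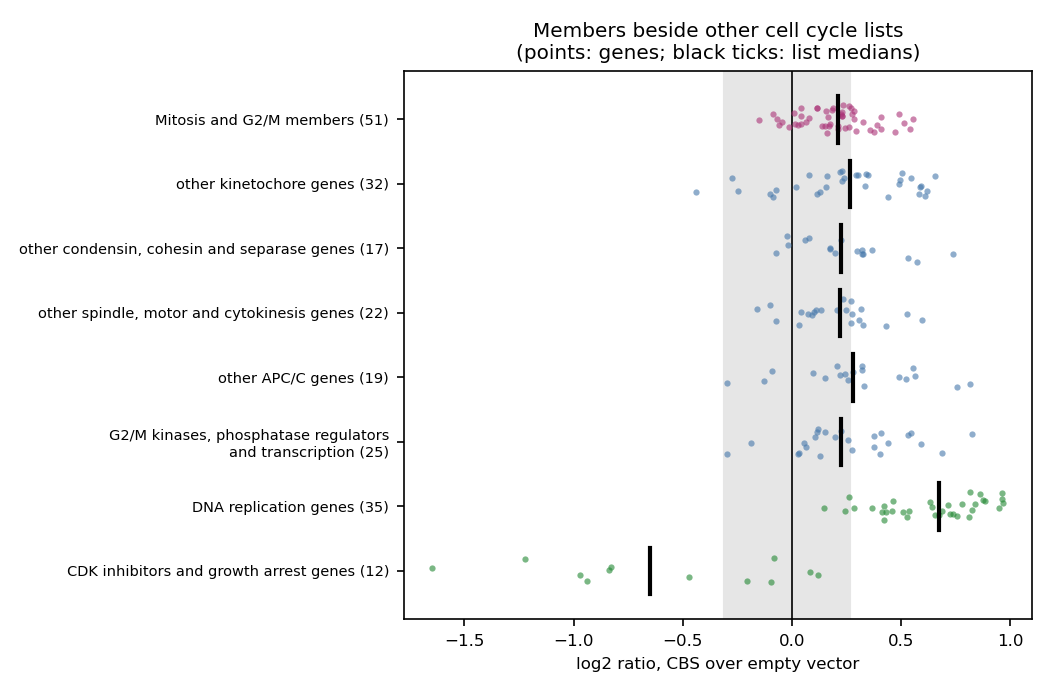
Log2 ratio, CBS over empty vector, of each kept gene in the mitotic set (51), in 5 lists of other mitosis genes and in the lists of DNA replication (35) and growth arrest genes (12); black ticks are medians, and the grey band is the middle range of all kept genes. The medians of the mitotic lists lie between 0.21 and 0.28, that of replication at 0.67 and that of growth arrest at -0.65.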

How the data were processed

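RNA sequencing of HBEC-3KT cells gave 1 library per group, with groups taken from the genotype in the labels. The submitters' processing notes list GRCh38, RSEM 1.3.2, STAR 2.6.1d and Trimmomatic 0.39 but no settings. Whether counting used strand is not given in the sources used here. Per gene, the authors deposited expected counts, estimates that need not be whole. They also deposited TPM values. The expected counts were rounded and summed to 20785957 (CBS) and 20433062 (empty vector).

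The filter on low values asked for 10 counts in either library and a mean CPM of 1, and 13304 of 60619 genes passed. Scaling used TMM factors (edgeR 4.0.16, R 4.3.3) of 1.03 and 0.975, with no model fitted. Log2 ratios (CBS over empty vector) carry a prior count of 5. Intervals are 95% Clopper-Pearson intervals of the count ratio without the prior count. They cover counting error only, and amplified reads are not independent molecules. Ratio and interval calculations were tested on simulated counts with known folds and counting error only, which is the error that the intervals assume. That checks the arithmetic and not how the intervals hold for spread between cultures. With 1 library per group no test between conditions was possible, and no p-value is given.

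The members, role groups and lists were chosen with earlier results of these data known. Within each role group, values are given in full for the highest and lowest member and for any member at least 1.5-fold apart. In the other lists the rule took the 3 highest and 3 lowest genes with at least 100 counts in 1 library. One gene that this rule names is not reported here. Symbols were matched in the deposited table, and 5 newer symbols by gene ID. The longest GENCODE 29 transcript of a gene gave its GC content and length, for 99.4% of kept genes and 51 of 51 members. As an alternative, log2 ratios were corrected for both with lowess fits (statsmodels 0.14.6, span 0.3). Promoters came from RefSeq on GRCh38.p14, and their motifs were not a measurement of these cells. A planned comparison of protein sequences was not run. The other alternatives were DESeq2 1.42.0 size factors, plain library totals, TPM, prior counts of 1 and 20, no filter and a filter of 100 counts.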

Additional observations from a re-analysis of the deposited data

How the results depend on the processing

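Over 8 alternatives the median log2 ratio of the members stayed above 0, but not all of these could change it. All 51 members passed each filter, and alternatives that changed only the filter gave every member its main log2 ratio again. Other prior counts could change little at depths of 274 counts or more, and gave medians of 0.21. The median of the members was 0.28 with plain library totals, 0.29 on log2(TPM + 1) and 0.15 after correction for GC content and length. The medians of all kept genes there were 0.07, 0.09 and 0.00. The count of members with an interval below a ratio of 1 was 0 with plain library totals and 5 after that correction. Members at least 1.5-fold higher numbered 2 with plain library totals (LBR and HMGB2) and 4 on log2(TPM + 1), where the fold alone was used. The shares of all kept genes under these alternatives were not counted. On log2(TPM + 1) the ratio of BUB3 changed sign, to 0.021, against -0.09 in counts. Members whose interval held 1 also changed sign, 4 with plain library totals and 4 on log2(TPM + 1) (CKS1B, TTK, UBE2C and CENPA in both), and 5 after correction for GC content and length (CDK1, CKAP2, UBE2C, CENPF and NDC80), which left 42 of 51 above 0. Intervals were shifted with the log2 ratios by that correction, and none was available for TPM. Values of single members under the alternatives were set against the distance from the middle of their counting interval to its end. Of these values, 345 moved by less than that or not at all, and 62 moved further. The remaining 1, BUB3 on log2(TPM + 1), changed sign where its interval in counts excluded a ratio of 1. The 345 include all values under the filter alternatives, which could not move, so this count is no measure of stability. No paired analysis was possible because each group held 1 library. Leaving out a replicate was not possible either. The intervals cover counting error at depths of 274 counts or more, and the spread between cultures is not measured.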

Other observations

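TPM and counts gave different log2 ratios for some members. The log2 TPM ratio exceeded the log2 ratio in counts by a median of 0.11 over the 51 genes. An offset of this kind was not particular to the members. Over all kept genes the median was 0.10 for the log2 TPM ratio and 0.00 for the log2 ratio in counts. The gap was widest for SPC25 (0.59 in TPM, 0.29 in counts) and BUB1B (0.76 and 0.49), and it was negative for 5 genes, among them CENPE (0.11 and 0.23), BIRC5 (0.15 and 0.23) and TOP2A (0.11 and 0.19). The cause was not tested.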
